A study of Mus musculus with 6 samples.

Results

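Pmp22, Prx, Pmp2, Ncmap and Ngfr are genes known from Schwann cells and the myelin of peripheral nerves, and they were taken by name from the table of the optic nerve libraries. All 5 were measured, among 25755 genes in all. The study sequenced these nerves to learn how an optic nerve crush (ON-CR) leads tumour-associated microglia and macrophages to make the chemokine Ccl5. Bulk RNA was sequenced from optic nerves of 3 mice with sham surgery (mice 1 to 3) and 3 mice with ON-CR (mice 4 to 6). Both groups had the genotype NF1flox/flox;hGFAP-Cre, in which Cre recombinase made from the promoter of human GFAP deletes Nf1 from neuroglial progenitors and their progeny, so the controls lacked Nf1 in these cells too. Surgery was bilateral and took place at 6 weeks of age, and the nerves were taken from perfused mice at 12 weeks (3 months in the sample labels). The study reports optic gliomas in ON-CR nerves of this genotype at this age, with larger volume, more dividing cells and more microglia and macrophages than sham. In the values below, effects of the crush and of such a tumour cannot be told apart. The labels name 1 mouse per library, and each was counted as 1 replicate. For the PCR work on optic nerve RNA the study's methods give 2 mice to a sample, and whether this holds for the sequenced libraries is not given in the sources used here, so a numbered mouse below may stand for a pool.

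Schwann cells wrap the axons of peripheral nerves, whereas the optic nerve belongs to the central nervous system and is myelinated by oligodendrocytes. The proteins of both kinds of myelin differ in part. PMP22 is a membrane-spanning protein of compact peripheral myelin whose gene dosage underlies common inherited neuropathies. Pmp2 encodes a fatty acid binding protein of compact peripheral myelin. Prx encodes periaxin, a scaffold that ties the Schwann cell membrane to the basal lamina through DRP2 and dystroglycan. Ncmap encodes a glycoprotein of the non-compact membrane in peripheral myelin. Ngfr encodes p75NTR, the shared receptor of the neurotrophins, which marks immature, non-myelinating and denervated Schwann cells and is also made by other cells.

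EGR2 (KROX20) is the transcription factor that switches on peripheral myelin genes. Its gene, Egr2, had higher values in ON-CR, with limits given below, and which cells made its transcripts was not tested. For this reason, and because Pmp22 starts from several sites with unlike sequences, the upstream sequences shown here were chosen. Each is the 250 bases before a RefSeq transcript start in build GRCm38.p6, written 5′ to 3′ on the strand of the gene, with the EGR letters GCGTGGG or GCGGGGG (either strand) in capitals.
Pmp22, first start, chr11:63128732-63128981, plus strand: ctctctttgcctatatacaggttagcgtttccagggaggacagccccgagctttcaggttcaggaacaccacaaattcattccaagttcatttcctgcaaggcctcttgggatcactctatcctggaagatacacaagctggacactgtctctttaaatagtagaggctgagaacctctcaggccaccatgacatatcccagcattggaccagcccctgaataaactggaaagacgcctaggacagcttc
Pmp22, last start, chr11:63132553-63132802, plus strand: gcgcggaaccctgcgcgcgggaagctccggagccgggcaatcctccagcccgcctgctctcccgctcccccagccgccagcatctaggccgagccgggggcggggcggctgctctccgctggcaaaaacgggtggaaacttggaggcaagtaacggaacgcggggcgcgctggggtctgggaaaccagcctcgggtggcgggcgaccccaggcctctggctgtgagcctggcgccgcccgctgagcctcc
Prx, chr7:27499074-27499323, plus strand: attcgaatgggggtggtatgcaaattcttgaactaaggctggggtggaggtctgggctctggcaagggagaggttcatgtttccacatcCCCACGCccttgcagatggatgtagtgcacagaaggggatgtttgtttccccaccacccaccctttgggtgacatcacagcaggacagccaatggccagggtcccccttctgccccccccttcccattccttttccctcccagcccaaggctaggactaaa
Ncmap, distal start, chr4:135398228-135398477, minus strand: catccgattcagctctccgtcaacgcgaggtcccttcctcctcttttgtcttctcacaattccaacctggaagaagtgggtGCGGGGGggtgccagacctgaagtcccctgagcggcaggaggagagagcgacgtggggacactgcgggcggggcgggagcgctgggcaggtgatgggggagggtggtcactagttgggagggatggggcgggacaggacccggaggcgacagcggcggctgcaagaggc

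RefSeq gave 8 such windows for 4 of the genes, 4 of them for Pmp22, 2 for Ncmap and 1 each for Prx and Ngfr. The EGR letters occurred in 3 windows, the Prx window and both Ncmap windows, and in none of the 4 Pmp22 windows or the Ngfr window. Of 32851 windows of all genes, 13.0% held them. The SOX letters ACAAAG or ACAATG and the letters TATAAA, also searched on both strands, were in none of the 8 windows, against 25.2% and 12.4% of all windows. The first Pmp22 window held 3 CpG dinucleotides and the last 27, against a median of 6 over all windows, and the value of a gene does not separate its starts. A match or its absence describes only these letters in these windows.

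The values are normalised counts, that is, estimated reads per gene that the authors divided by 1 factor per library. In each library 70.0% to 72.0% of the values of up to 100 reads were whole multiples of the most frequent step, taken as the value of 1 read (0.885 to 1.06), from which 17414091 to 23621006 reads per library were estimated, and all 3 ON-CR libraries had fewer reads than any sham library. A floor of 3 reads equals a normalised count of 2.66 to 3.18 and covers counting error only. All genes were tested with limma on log2(value + 1), and a gene was called at an adjusted p at or under 0.05. Of the 25755 genes, 540 (2.1%) were called, 250 of them higher in ON-CR (0.971%) and 290 lower (1.13%), and the median log2 fold change was 0.03. Xist, the transcript of the silenced X chromosome, lay at 2.14 to 30.9 in sham and 2708 to 6357 in ON-CR. The Y-linked Ddx3y lay at 1291 to 1645 in sham and at 976, 4.19 and 0 in ON-CR mice 4, 5 and 6. Both transcripts were present in the library of mouse 4. The labels give no sex, and for every gene below the surgery cannot be told apart from what differs with these sex-linked transcripts. The immunoglobulin transcript Igkc reached 83710 in ON-CR mouse 6, against 48.2 to 1602 in the other mice, and values without that mouse are given where they change a call.

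None of the 5 peripheral myelin genes was called, against 2.1% of all genes. Pmp22 and Ngfr were measured closely and had estimates near 0, with log2 fold changes of -0.24 and -0.11. Prx, Pmp2 and Ncmap had low counts, with 5 to 15, 1 to 35 and 20 to 46 estimated reads per mouse, and their intervals are wide. Of these values, only that of Pmp2 in ON-CR mouse 4 was under the floor of 3 reads. Pmp2 had the largest estimate, a log2 fold change of -1.93, with an adjusted p of 0.218. The 2 groups of values were separate for Prx, which was higher in ON-CR, and for Pmp2, which was lower, that is, for 2 of 5 genes against 21.6% of all genes. One of the 5 had a log2 fold change above 0, and their median was -0.21.

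**Figure D1:**
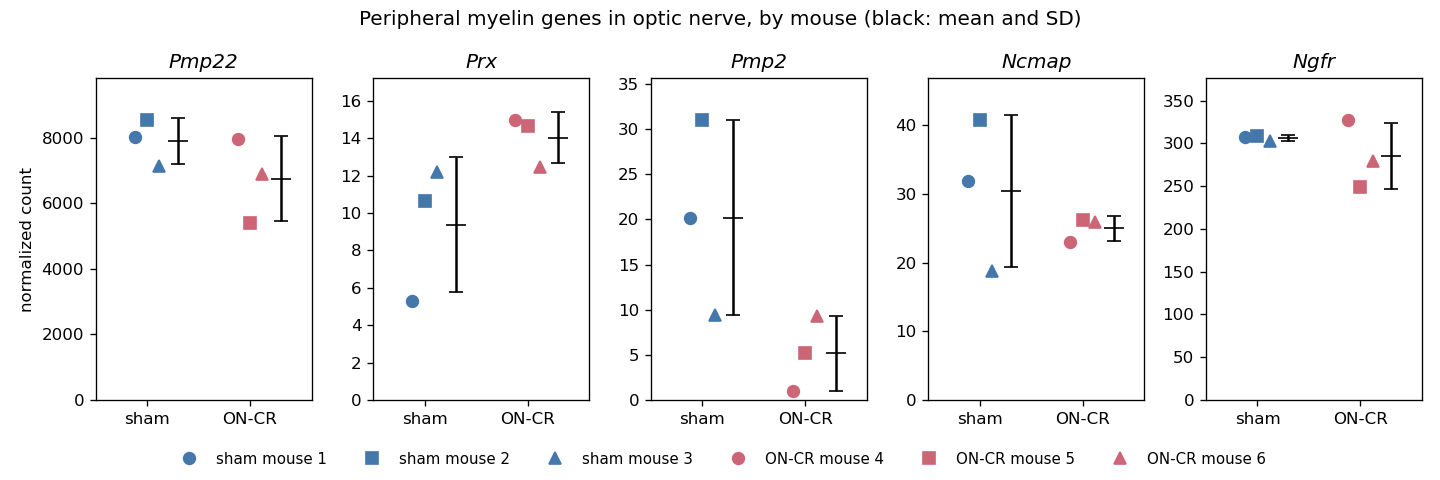
Normalised count (vertical axes, each from 0) of Pmp22, Prx, Pmp2, Ncmap and Ngfr in each sham and ON-CR mouse, with the mean and SD of each group in black. Pmp22 lies between 5402 and 8524 and Ngfr between 249.5 and 327.04, whereas no mouse exceeds 14.96 for Prx, 31.0 for Pmp2 or 40.7 for Ncmap.

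Pmp22 (ENSMUSG00000018217.12) lies on chromosome 11 from 63128982 to 63159547 on the plus strand of GRCm38, with 2354 bases of exon and 5 annotated transcript starts. Its normalised count was 8022, 8524 and 7122 in sham mice 1, 2 and 3, whereas ON-CR mice 4, 5 and 6 had 7959, 5402 and 6888. The groups overlapped, since ON-CR mouse 4 lay between sham mice 3 and 1, and the ON-CR values spread more widely than the sham values. The means were 7889 ± 710 (SD, n = 3) and 6750 ± 1284 (SD, n = 3). The log2 fold change was -0.24 (SE 0.15, 95% interval -0.57 to 0.09, limma adjusted p = 0.484), which is a fold of 0.847 with an interval of 0.674 to 1.07. A two-sided exact permutation test gave p = 0.2, where 0.1 is the smallest p that 3 against 3 allows. With 5153 to 9628 estimated reads per mouse, counting error was small beside the spread between mice. In bulk RNA, fewer cells of a type and less RNA per cell cannot be told apart, here or in any value that follows.

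Prx (ENSMUSG00000053198.13), at 27499324 to 27520214 on the plus strand of chromosome 7, has 5579 bases of exon. Its normalised count was 5.31, 10.6 and 12.2 in sham mice 1, 2 and 3. It reached 14.96, 14.7 and 12.5 after ON-CR (mice 4, 5 and 6). All 3 ON-CR values were above all 3 sham values, by as little as 12.5 against 12.2. The means were 9.38 ± 3.62 and 14.0 ± 1.37 (SD, n = 3 each), for a log2 fold change of 0.60 (SE 0.48, 95% interval -0.48 to 1.68, limma adjusted p = 0.604). The exact permutation p was 0.1, the smallest possible. These values stand for 5 to 15 estimated reads per mouse, 30 in sham and 41 in ON-CR in all, a ratio after scaling of 1.604 with an exact 95% interval of 0.977 to 2.66 for counting error only. Exons of Prx overlap the antisense gene Gm15541, itself at 2.80 to 14.0 per mouse, and reads of both cannot be told apart unless the counting used strand, which is not given in the sources used here.

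Pmp2 (ENSMUSG00000052468.7), at 10179851 to 10183929 on the minus strand of chromosome 3, has 1408 bases of exon. Its normalised count was 20.2, 31.0 and 9.39 in sham mice 1, 2 and 3, against 0.992, 5.21 and 9.30 in ON-CR mice 4, 5 and 6. Sham mice 1 and 2 were high, while sham mouse 3 was nearly equal to ON-CR mouse 6, so the groups were separated by 9.39 against 9.30. The means were 20.2 ± 10.8 and 5.17 ± 4.15 (SD, n = 3 each). This gave a log2 fold change of -1.93 (SE 0.71, 95% interval -3.50 to -0.36), with an unadjusted limma p of 0.0210 and an adjusted p of 0.218, and the exact permutation p was 0.1. An unadjusted p at or under 0.05 was reached by 4016 of the 25755 genes. The estimated reads were 19, 35 and 10 in sham and 1, 5 and 9 in ON-CR, so the value of mouse 4 is under the floor of 3 reads. Summed over mice, the ratio of ON-CR to sham reads after scaling was 0.275, with an exact 95% interval of 0.146 to 0.488 that covers counting error and not the spread between mice. Exons of Pmp2 overlap those of Gm37389 on the same strand, and reads of the pair cannot be told apart.

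Ncmap (ENSMUSG00000043924.16), at 135369576 to 135398227 on the minus strand of chromosome 4, has 2227 bases of exon and 7 annotated starts. Its normalised count was 31.8, 40.7 and 18.8 in sham mice 1, 2 and 3, against 22.9, 26.2 and 26.0 in ON-CR mice 4, 5 and 6. The ON-CR values lay close together and inside the range of the sham values. The means were 30.4 ± 11.0 and 25.0 ± 1.82 (SD, n = 3 each), for a log2 fold change of -0.21 (SE 0.38, 95% interval -1.06 to 0.64, limma adjusted p = 0.848, exact permutation p = 0.6). Between 20 and 46 reads per mouse lay behind these values. Without sham mouse 2, the highest, the log2 fold change was 0.028 (limma adjusted p = 0.989), so the sign of the estimate rests on that mouse.

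Ngfr (ENSMUSG00000000120.6), at 95568818 to 95587735 on the minus strand of chromosome 11, has 3446 bases of exon. Its normalised count was 307.7, 308.99 and 302.4 in sham mice 1, 2 and 3, against 327.04, 249.5 and 279.3 in ON-CR mice 4, 5 and 6. The sham mice were almost equal, and the ON-CR mice lay on both sides of them. The means were 306 ± 3.50 and 285 ± 39.1 (SD, n = 3 each). This gave a log2 fold change of -0.11 (SE 0.15, 95% interval -0.45 to 0.23, limma adjusted p = 0.786, exact permutation p = 0.4), which is a fold of 0.926 with an interval of 0.731 to 1.17. When libraries were scaled to equal totals, the estimate turned to 0.017 (limma adjusted p = 0.968).

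A missed threshold does not show that the levels were alike. For Pmp22 and Ngfr the intervals leave room for a fold as low as 0.674 and 0.731, and for Prx, Pmp2 and Ncmap they reach from 0.718 to 3.19, from 0.0883 to 0.781 and from 0.479 to 1.56.

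Per kilobase of exon, which allows genes to be compared, Pmp22 stood far above the others. Its level was 3351 ± 302 normalised counts per kb in sham and 2867 ± 545 in ON-CR, at percentile 98.9 of all genes with a length. Ngfr followed at 88.9 ± 1.01 and 82.8 ± 11.4 per kb, at percentile 71.5. Pmp2 and Ncmap came next in sham, at 14.3 ± 7.67 and 13.7 ± 4.96 per kb, and did not differ beyond their spread. In ON-CR, Ncmap was at 11.2 ± 0.819 per kb, above Pmp2 at 3.67 ± 2.95, which did not differ beyond its spread from Prx at 2.51 ± 0.245. Prx had the lowest mean in both groups, with 1.68 ± 0.648 per kb in sham. The percentiles of Prx, Pmp2 and Ncmap were 9.09, 29.4 and 34.8.

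The label of the 5 genes was set against the Schwann cell markers. Of 10 such markers, which include the 5 genes, 9 were measured and none was at 0 in either group. Their summed normalised count ran from 7980 to 9536 in sham and from 6225 to 8865 in ON-CR, and most of it was Pmp22. Per kb, sham nerves held 3351 for Pmp22, against 1.68 for Prx, 5.76 ± 1.52 for Egr2 and 62.9 ± 6.93 for Cdh19, a cadherin of early Schwann cells. Which cells the Pmp22 and Ngfr transcripts came from was not tested, and the 5 genes are called peripheral myelin genes for where they are known from. Drp2, the partner of periaxin on the X chromosome, was at 270 ± 29.4 in sham and 224 ± 47.8 in ON-CR, with a log2 fold change of -0.28 (limma adjusted p = 0.523).

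**Figure D2:**
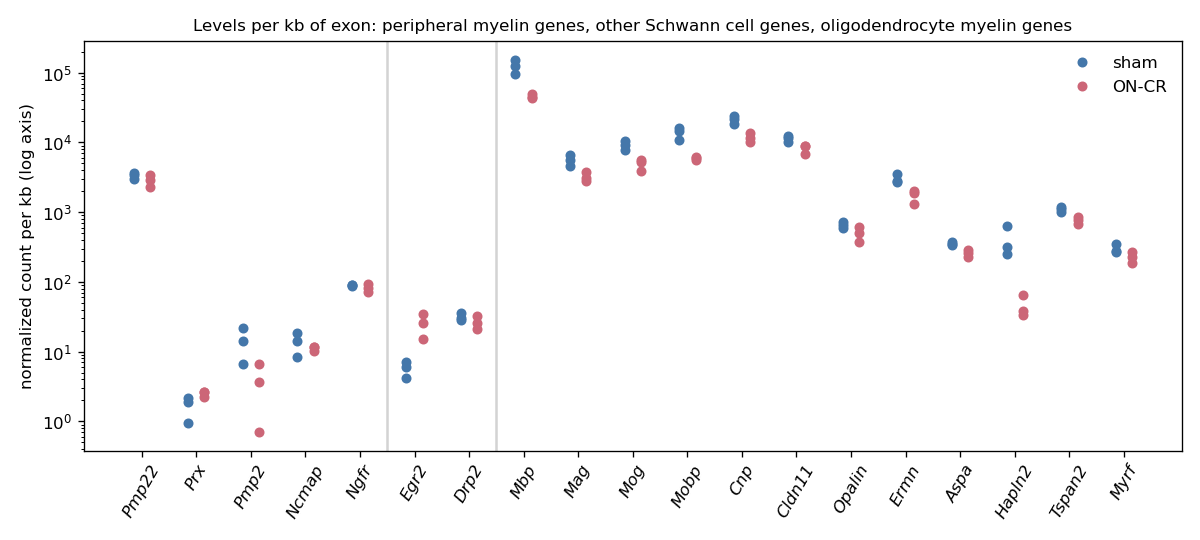
Normalised count per kb of exon (vertical log axis) in each mouse, sham in blue and ON-CR in red, for the peripheral myelin genes, for Egr2 and Drp2, and for genes of oligodendrocyte myelin. Pmp22, at 3351 per kb in sham, lies among the oligodendrocyte myelin genes, whereas Prx lies near 1.68.

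Egr2 and Gldn rose among the other genes of myelinating Schwann cells. Egr2 was at 20.2, 14.2 and 24.4 in sham and 88.7, 52.4 and 116 in ON-CR, without overlap, a log2 fold change of 2.04 (SE 0.38, limma adjusted p = 0.0250). This call was lost when any mouse other than ON-CR mouse 5 was left out, with adjusted p of 0.0582 to 0.182. Gldn, which encodes gliomedin, an organiser of the peripheral node of Ranvier, was at 5.31, 8.85 and 9.39 in sham and 83.8, 45.1 and 90.3 in ON-CR, a log2 fold change of 3.04 (limma adjusted p = 0.00624, and 0.0854 without ON-CR mouse 6). Macrophages also make Egr2. Of 9 microglia and macrophage markers, 3 (Aif1, C1qa and Cd68) were called higher and none lower, and 6 had a log2 fold change above 0. Values did not overlap for 4 markers that were higher in ON-CR and 1 that was lower, against 10.5% and 11% of all genes. The sum of the 9 ran from 16054 to 20438 in sham and 20960 to 31863 in ON-CR, and none was at 0. The calls of Aif1 and C1qa were lost in 5 and 3 of 14 alternatives, among them leaving out ON-CR mouse 6. The part of such cells in the Egr2 and Gldn values was not tested.

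Gjb1, Mal and Itgb4 fell in the same list. Gjb1 encodes connexin 32 and Mal a myelin proteolipid, both of which oligodendrocytes also make. Itgb4 encodes a laminin receptor subunit known from Schwann and perineurial cells, and which cells made its transcripts here was not tested. The log2 fold changes of Gjb1, Mal and Itgb4 were -1.09 (limma adjusted p = 0.0236), -0.90 (0.00527) and -0.93 (0.0296). Leaving out sham mouse 2 or ON-CR mouse 6 ended all 3 of these calls, leaving out sham mouse 1 those of Gjb1 and Itgb4, and leaving out sham mouse 3 that of Itgb4. Of the 13 genes, 2 were thus called higher, 3 lower and 8 not, with a median of -0.09 that turned to 0.03 with equal library totals, and without ON-CR mouse 6 none was called. Of 15 measured genes of immature, non-myelinating or repair Schwann cells, S100b alone was called, lower by 0.75 on the log2 scale (limma adjusted p = 0.0185). That call was lost without sham mouse 1, sham mouse 2, ON-CR mouse 4 or ON-CR mouse 6, with adjusted p of up to 0.124. The median of this list was 0.01. Values did not overlap for 4 of its genes that were lower in ON-CR and 0 that were higher, against 11% and 10.5% of all genes. Erbb3, a neuregulin receptor, was lower in ON-CR without overlap but not called (log2 fold change -0.57, limma adjusted p = 0.0763), and it was called lower with sample quality weights. Sox10 (log2 fold change -0.50, limma adjusted p = 0.201), Jun (-0.32, 0.589), Gap43 (0.60, 0.30005) and Ednrb (0.20, 0.435) were not called. Sox10 was also lower without overlap, and it is counted again below among the oligodendrocyte precursor markers. Which cells the transcripts of this list came from, S100b and Erbb3 among them, was not tested.

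The genes of oligodendrocyte myelin were called in 1 direction. Of 13 genes, 8 were called lower and none higher. Their median log2 fold change was -0.82, beside -0.21 for the 5 peripheral myelin genes and 0.03 for all genes. Mbp, which encodes the basic protein that compacts myelin, fell by 1.42 (limma adjusted p = 0.0117), Mog, which encodes a glycoprotein of the outer myelin surface, by 0.90 (0.0214), and Hapln2, a link protein of central nodes, by 3.08 (0.00264). Leaving out ON-CR mouse 6 or sham mouse 2 left 1 of these calls, Hapln2, and leaving out sham mouse 1 left 3, while the median stayed between -0.94 and -0.69 in every setting tried.

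**Figure D3:**
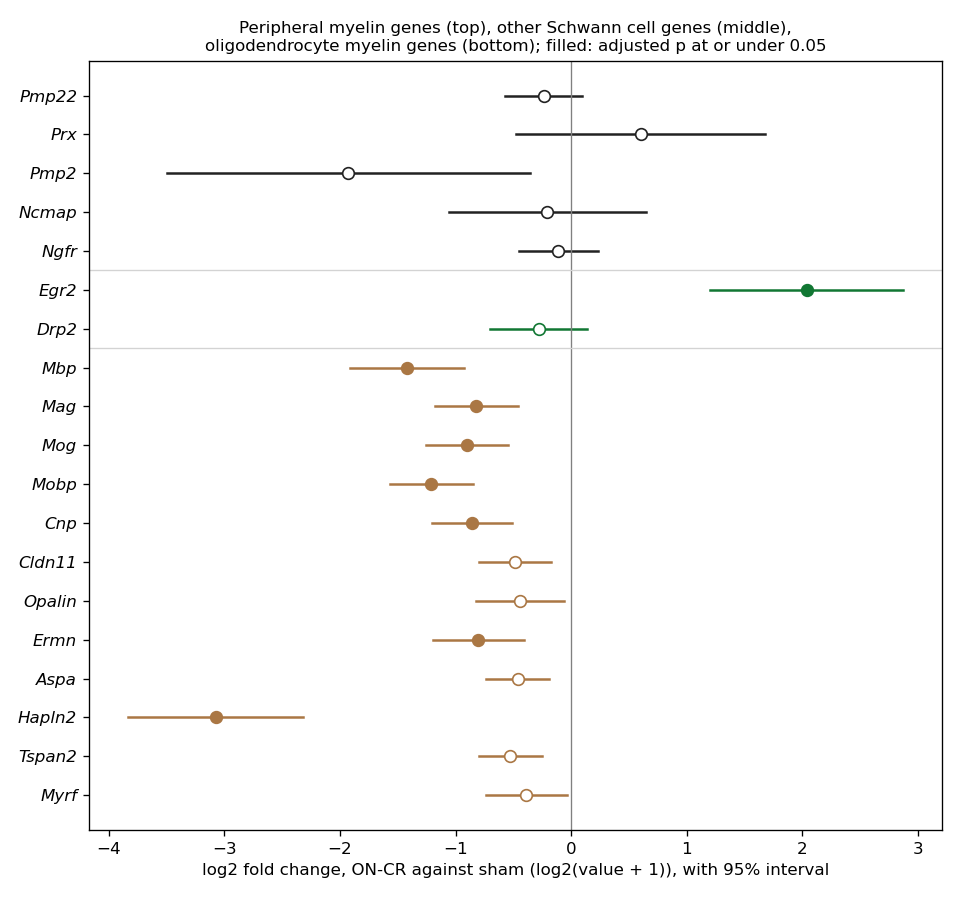
Log2 fold change of ON-CR against sham with its 95% interval for the peripheral myelin genes (top), Egr2 and Drp2 (middle) and genes of oligodendrocyte myelin (bottom), with filled points for genes called by limma. Pmp22 and Ngfr sit close to 0 with short intervals, while most of the oligodendrocyte myelin genes are filled, and all that are shown lie to the left of 0.

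Measured against these genes in the same mouse, Pmp22 was relatively higher after ON-CR. Its log2 value minus the mean log2 value of the 13 oligodendrocyte myelin genes was -1.06, -1.18 and -1.05 in sham mice 1, 2 and 3, against -0.34, -0.47 and -0.36 in ON-CR mice 4, 5 and 6, without overlap. The difference of the means was 0.70 (exact permutation p = 0.1). Per kb, Pmp22 amounted to 37.1% ± 2.05 of Mog in sham and 58.7% ± 2.30 in ON-CR. On the same measure Prx, Ncmap and Ngfr were also higher without overlap, by 1.54, 0.73 and 0.83, while Pmp2 overlapped and its difference was -0.99. Since 65.2% of all genes were higher without overlap on this measure, nothing particular to the peripheral myelin genes is read from 4 of 5.

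Of the other genes of the periaxin complex and of laminin binding, most showed no call. Among 13 genes, Itga6, the partner of integrin beta 4, rose by 0.65 on the log2 scale (limma adjusted p = 0.0439) and Itgb4 fell, and the median was -0.10. The Itga6 call was lost in 7 of 14 alternatives, with adjusted p of up to 0.205, among them leaving out each mouse other than ON-CR mouse 5. Dag1, which encodes the dystroglycan that DRP2 binds, was at 2439 ± 137 in sham and 2272 ± 148 in ON-CR (log2 fold change -0.10, limma adjusted p = 0.701). Ahnak, a large scaffold related to periaxin, had a log2 fold change of 0.21 (0.480).

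The ligands, co-receptors and adaptors of p75NTR gave no call among 16 genes, with a median log2 fold change of -0.10. Bdnf, a neurotrophin ligand, was at 119, 80.6 and 96.7 in sham and 169, 177 and 320.2 in ON-CR, without overlap, with a log2 fold change of 1.11 (limma adjusted p = 0.0724). It was called higher in 4 of 14 alternatives, namely equal library totals, sample quality weights, robust moderation and leaving out ON-CR mouse 5. The receptor gene Ntrk2 had a log2 fold change of 0.06 (limma adjusted p = 0.881), and Sort1, whose product sortilin binds proneurotrophins together with p75NTR, one of -0.37 (0.1496).

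No relative of PMP22 or of the PMP2 protein was called in the reported test. Among 6 genes of the PMP22, EMP and related family the median was 0.05, with Emp1 at a log2 fold change of 0.38 (limma adjusted p = 0.432), Emp2 at -0.02 (0.952), Emp3 at 0.12 (0.786) and Perp at -0.60 (0.0620). Perp was called lower with robust moderation. Among 7 genes for binding proteins of fatty acids and retinoids the median was 0.34, and Fabp5 and Fabp7, the forms found in glia, were at 0.35 (0.332) and 0.34 (0.333). Fabp7 was at 2355 ± 496 in sham, against 20.2 ± 10.8 for Pmp2.

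**Figure D4:**
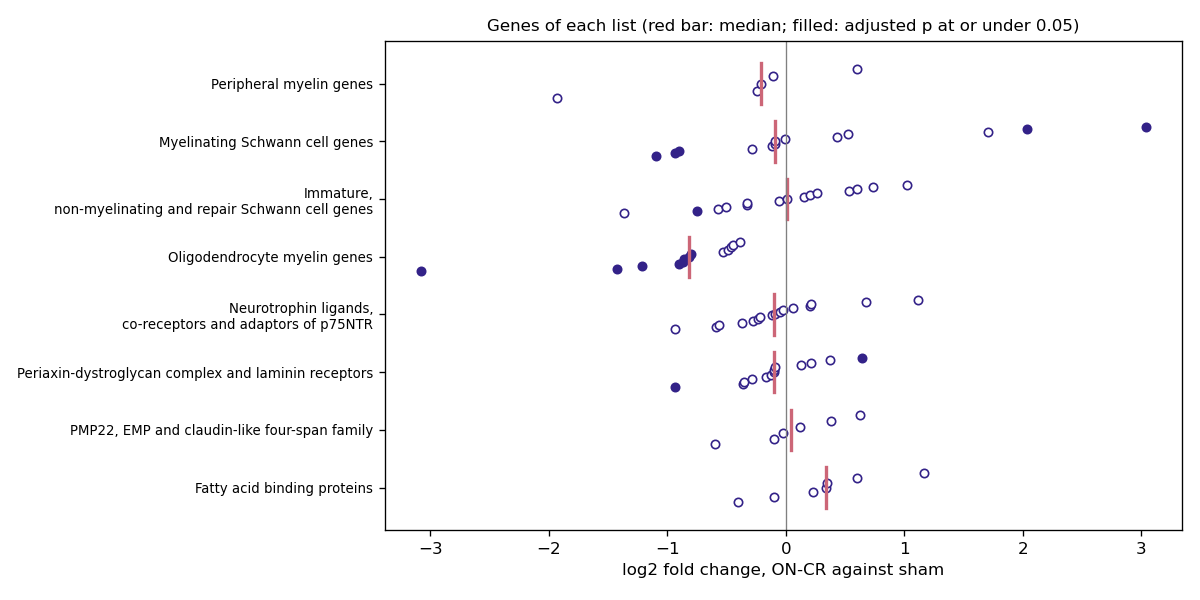
Log2 fold change of ON-CR against sham for each gene of each list, with the median as a red bar and filled points for genes called by limma. The peripheral myelin genes hold no filled point and a median of -0.21, and the oligodendrocyte myelin genes have the lowest median, -0.82.

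Markers of other cells that a whole optic nerve holds were counted in the same way. Pmp22 was first known from fibroblasts. Of 10 markers of meningeal and perineural fibroblasts, 1 (Slc47a1, a call lost in 5 of 14 alternatives) was called lower and none higher, with a median of -0.52. Their summed normalised count ran from 34337 to 39026 in sham and from 19864 to 31536 in ON-CR, and no marker was at 0. Only 1 of these 10 had a log2 fold change above 0. Values did not overlap for 4 that were lower and 0 that were higher, against 11% and 10.5% of all genes. Igfbp6 was called lower with sample quality weights and with robust moderation, and Col1a1 and Col3a1 without ON-CR mouse 4. Of the 6 perineurial markers, Itgb4 alone was called, lower, and this call was lost in 4 of 14 alternatives. Only 2 of the 6 had a log2 fold change above 0. Values did not overlap for 3 markers that were lower and 1 that was higher, against 11% and 10.5% of all genes. Pdlim4 was called higher with equal library totals. The perineurial sums were 8930 to 9327 and 6459 to 7818, with none at 0. In the reported test no gene was called among the markers of endothelial cells (10, sums 4796 to 5627 and 4639 to 5360), pericytes and smooth muscle (9, sums 14586 to 16560 and 11617 to 16118), astrocytes (8, sums 174249 to 210561 and 252904 to 284888) or oligodendrocyte precursors (8, sums 8991 to 9848 and 7162 to 8513). The astrocyte gene Gfap was called higher with equal library totals and with robust moderation. Of the 8 astrocyte markers, 3 were higher in ON-CR without overlap, against 10.5% of all genes. Of the 8 oligodendrocyte precursor markers, 4 were lower without overlap and 0 higher, against 11% and 10.5% of all genes. Only 1 of these 8 had a log2 fold change above 0. None was called among 4 melanocyte, 8 skeletal muscle and 5 photoreceptor markers, whose sums reached at most 539, 321 and 68.7, and Mlana was at 0 in all sham mice. The part of any of these cells in the Pmp22 value was not tested.

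Over the 6 mice, the 5 genes did not all follow 1 pattern. Likeness was measured as the root mean square difference between log2 values centred on each gene's mean over the 6 libraries. The closest pair was Pmp22 and Ngfr, at 0.11, and the farthest was Prx and Pmp2, at 1.62. Prx rests on 5 to 15 and Pmp2 on 1 to 35 estimated reads per mouse, so counting error enters their distances. Ncmap lay at 0.32 from Pmp22 and 0.36 from Ngfr, but at 0.68 from Prx and 1.09 from Pmp2. Over 14435 genes with a mean of at least 50, Pmp22 was closest to Plk3 (0.04), Mindy3 (0.05) and Rab3il1 (0.05), against a median of 0.29. Ngfr was closest to Myo1c (0.02), Actb (0.03) and Fam98a (0.03), against a median of 0.24. For the low genes, 19649 genes with a mean of at least 10 were compared. Prx was closest to Cep162 (0.05), F830115B05Rik (0.08) and Gm37521 (0.09), against a median of 0.54. Ncmap was closest to Asb10 (0.08), Rbm11 (0.09) and Gm10357 (0.11), against a median of 0.44. Pmp2 was closest to Gm37240 (0.27), Gm597 (0.50) and Gm42495 (0.55), against a median of 1.31. Genes that differ little between mice resemble each other on this measure, and all points share the same 6 libraries.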

How the data were processed

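RNA of optic nerves from 3 sham and 3 ON-CR mice was sequenced in bulk from 10 ng of total RNA with a SMARTer Ultra Low kit, and all 6 libraries were used. Mice were grouped by the sample labels. The authors aligned and quantified reads with DRAGEN, assigned them to Ensembl genes (mm10) and normalized by the median in Partek (version 10.0 in the submitters' processing notes), and the study used DESeq2. The deposited signal for each gene is therefore an estimated count over 1 factor per library. Divided by the value of 1 read, 70.0% to 72.0% of values of up to 100 reads were whole (tolerance 0.02 read), so no count test was run, and the recovered reads served only for depth, floors and read ratios. Depth was 17414091 to 23621006 estimated reads per library.

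All 25755 genes entered 1 limma fit (version 3.58.1, R 4.3.3) of log2(value + 1) on group, without covariates, moderated along a mean-variance trend, and p-values were adjusted by Benjamini-Hochberg. Adjusted p-values come from limma throughout. The fold change of a low gene is understated on this scale. The fit was tested on simulated data in which 200 genes were changed 4-fold, and it recovered 200 with the right sign and made 6 false calls. The changed genes all had higher means than Prx, Pmp2 and Ncmap, and all genes were given the same spread. The simulation thus does not show what the fit can detect for these 3 genes. Exact permutation tests were two-sided. Gene positions and lengths are from GENCODE M21 (GRCm38), matched by name for 97.2% of genes. Upstream sequences are from RefSeq. Alternatives were pseudocounts of 0.1 and 2, a mean value of at least 10, 3 other scalings, sample weights, robust moderation and leaving out each mouse.

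The genes and lists were chosen with earlier results of these data known, so lists are described by counts and medians without a test. Named genes were the 5 genes, called genes of each list and its most abundant genes, Egr2, Drp2, the 3 nearest genes of each, and Xist and Ddx3y. Genes named outside this rule, among them Gm15541, Igkc, Bdnf, Erbb3, Jun, Gap43, Perp and Emp1, were chosen after their values were seen. Results for some genes are not reported here.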

Additional observations from a re-analysis of the deposited data

How the results depend on the processing

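None of the 5 peripheral myelin genes was called under any of 14 alternatives. The log2 fold change ran from -0.37 to -0.088 for Pmp22 (limma adjusted p 0.302 to 0.799), 0.27 to 0.81 for Prx (0.501 to 0.865), -2.45 to -1.26 for Pmp2 (0.134 to 0.551), -0.51 to 0.028 for Ncmap (0.557 to 0.989) and -0.21 to 0.017 for Ngfr (0.614 to 0.969). The sign turned for Ncmap without sham mouse 2 (0.028) and for Ngfr with equal library totals (0.017). The 540 calls over all genes became 67 without ON-CR mouse 6, 123 without sham mouse 2, 192 without sham mouse 1, 258 without sham mouse 3, 854 when ON-CR mouse 5 and 462 when ON-CR mouse 4 was left out, and 484 to 791 in the other settings. Equal library totals gave 421 higher and 195 lower calls, in place of 250 and 290, and moved the median of all genes from 0.03 to 0.15. The cause was not tested. Prx, Pmp2 and Ncmap rest on 1 to 46 reads per mouse, which limits what a test can show. Alternatives for genes named beside the 5 were added after seeing the data. No paired analysis was possible because the mice are numbered 1 to 3 in sham and 4 to 6 in ON-CR, so the groups share no number.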
